A study of Mus musculus with 30 samples.

Results

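The 10 transcripts described here are markers by which injury and repair of the kidney tubule are commonly read: *Havcr1*, *Lcn2*, *Clu*, *Spp1*, *Tnfrsf12a*, *Vcam1*, *Sox9*, *Cd24a*, *Krt8* and *Krt18*. They were chosen by symbol, and all 10 were found among the 54838 genes of the kidney count table. RNA-seq had been done on kidneys of wild-type male C57BL/6J mice in 3 groups of 5, with 1 library per mouse. The chow diet (CD) and western diet (WD) groups were given water, and the WD + CHP group received the western diet and cyclo(His-Pro) (CHP), a cyclic dipeptide, at 20 mg/kg by gavage 3 times per week. All mice were kept at thermoneutrality (30 to 32 °C) from 6 weeks of age, diets and gavage began at Week 7, and mice fasted for 3 h were killed at Week 24, so that the warm housing and the gavage were common to every group. The label on RNA extraction speaks of frozen liver, whereas the tissue label and the study's methods give kidney. All 15 markers of the proximal tubule on a fixed list were expressed, with a summed level of 20797 to 24832 CPM (counts scaled to library size) per library.

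The tubule epithelium answers damage with a stereotyped programme. Injured tubule cells lose transport proteins and shed or secrete proteins that are measured in urine as injury markers, among them KIM-1 (*Havcr1*), NGAL (*Lcn2*), clusterin (*Clu*) and osteopontin (*Spp1*). Cells that fail to complete repair keep VCAM1 and the TWEAK receptor Fn14 (*Tnfrsf12a*) on their surface, and SOX9, CD24 and the paired keratins 8 and 18 mark cells in a repairing or progenitor-like state. Several of these genes are also expressed in the healthy kidney, *Spp1*, *Cd24a*, *Krt8* and *Krt18* mainly in the distal nephron and collecting duct. In bulk tissue, a change in the number of cells of a type and a change in RNA per cell cannot be told apart.

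In GRCm38 (GENCODE M21), *Havcr1* spans chr11:46735080-46779578, *Lcn2* chr2:32384633-32388252, *Clu* chr14:65968483-65981547, *Spp1* chr5:104435118-104441050 and *Tnfrsf12a* chr17:23675445-23677468. *Vcam1* spans chr3:116109949-116129688, *Sox9* chr11:112782224-112787760 and *Cd24a* chr10:43578284-43584265. *Krt8* (chr15:101996698-102004482) and *Krt18* (chr15:102028180-102032027), whose proteins pair into the same filaments, are neighbours separated by 23697 bases. The strand setting of the counting is not given in the sources used here, and reads of overlapping genes cannot be told apart, but the genes that overlap exons of *Spp1*, *Vcam1* and *Krt8* held at most 16, 1 and 3 counts in any kidney library.

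RefSeq promoter sequences (GRCm38.p6) were at hand for 6 of the 10 genes, and the 250 bases before each start were searched on both strands for the TATA box motif TATAAA (in 12.4% of all 32851 promoters of that length), the GC box motif GGGCGG (32.7%), the AP-1 motif TGANTCA (6.75%), the STAT motif TTCNNNGAA (7.02%) and an NF-kB motif (0.356%). The upstream sequence of *Tnfrsf12a* is shown because its CD libraries overlapped with neither WD group. The share of all genes with such a separation was not counted, here or below. Those of *Krt18* and *Krt8* are shown because the 2 transcripts parted in 1 library. Each is printed 5′ to 3′ on the strand of its gene up to the first annotated base, from chr17:23677469-23677699 (minus strand), chr15:102027966-102028179 (plus strand) and chr15:102004483-102004592 (minus strand), with GC boxes in capitals. Of the 250 bases searched, the last 19 of *Tnfrsf12a*, 36 of *Krt18* and 140 of *Krt8* lie past the first base annotated in GENCODE and are not printed.
Tnfrsf12a: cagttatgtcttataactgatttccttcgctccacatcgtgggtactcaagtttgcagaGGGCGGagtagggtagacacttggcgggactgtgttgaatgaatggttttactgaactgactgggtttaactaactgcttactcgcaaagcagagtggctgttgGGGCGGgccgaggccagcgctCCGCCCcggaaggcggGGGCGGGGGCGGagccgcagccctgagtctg
Krt18: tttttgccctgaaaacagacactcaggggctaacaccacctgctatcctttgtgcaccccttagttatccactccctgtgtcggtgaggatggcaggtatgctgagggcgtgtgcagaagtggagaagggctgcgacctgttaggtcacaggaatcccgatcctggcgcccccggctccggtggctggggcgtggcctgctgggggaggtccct
Krt8: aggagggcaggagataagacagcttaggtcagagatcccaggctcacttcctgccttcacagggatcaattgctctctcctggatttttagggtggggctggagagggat
The *Tnfrsf12a* window held 5 GC boxes, as many as or more than which were found in 1.93% of promoters, whereas *Krt18* and *Krt8* held none of these motifs. Of the other genes searched, *Spp1* held 1 TATA box motif, 211 bases before a start, *Lcn2* held 1 GC box motif and *Havcr1* held none. The windows of *Lcn2* and *Havcr1* lie wholly past the first base annotated in GENCODE. A match describes the letters and not a bound site.

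Kidney libraries held 37189192 to 38211422 counts, of which mitochondrial genes took 17.79% to 21.06%. All 10 members were among the 17120 genes kept by edgeR's filter on low counts. WD replicate 5 stood apart from the other libraries. The median correlation of its log2 CPM with its group was 0.9889, against 0.9904 to 0.9931 for the other 14 libraries, and its summed level of the urothelium list was 67.5 CPM against 11.1 to 27.9 CPM in the other WD libraries. Its hepatocyte list summed to 1234 CPM against 581 to 667 CPM, with *Alb* at 424 CPM against 15.1 to 21 CPM in the other WD libraries. CD replicate 1, at 81.4 CPM, held the next highest *Alb* level. The labels give no batch. The parts that urothelial or hepatocyte RNA play in the results below were not tested.

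Per kilobase of exon, the members covered a wide range of levels over the 15 kidney libraries. *Spp1* was the highest (210 ± 20 CPM per kilobase, SD, n = 15), followed by *Cd24a* (73 ± 5.4), *Clu* (63.6 ± 6.76), *Krt8* (39.9 ± 3.82), *Krt18* (9.94 ± 3.45) and *Tnfrsf12a* (4.62 ± 0.932). The lowest were *Vcam1* (1.23 ± 0.28), *Lcn2* (1.2 ± 0.239), *Havcr1* (1.06 ± 0.586) and *Sox9* (0.356 ± 0.0812). Neighbours in this order overlapped between libraries for *Cd24a* and *Clu*, for *Krt18* and *Tnfrsf12a*, and among the last 4 genes, while *Spp1* and *Krt8* were apart from the genes next to them. The defining marker of proximal tubule injury, *Havcr1*, was near the bottom of the range, with 39 to 214 counts per library, and *Sox9* had 37 to 77.

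**Figure D1:**
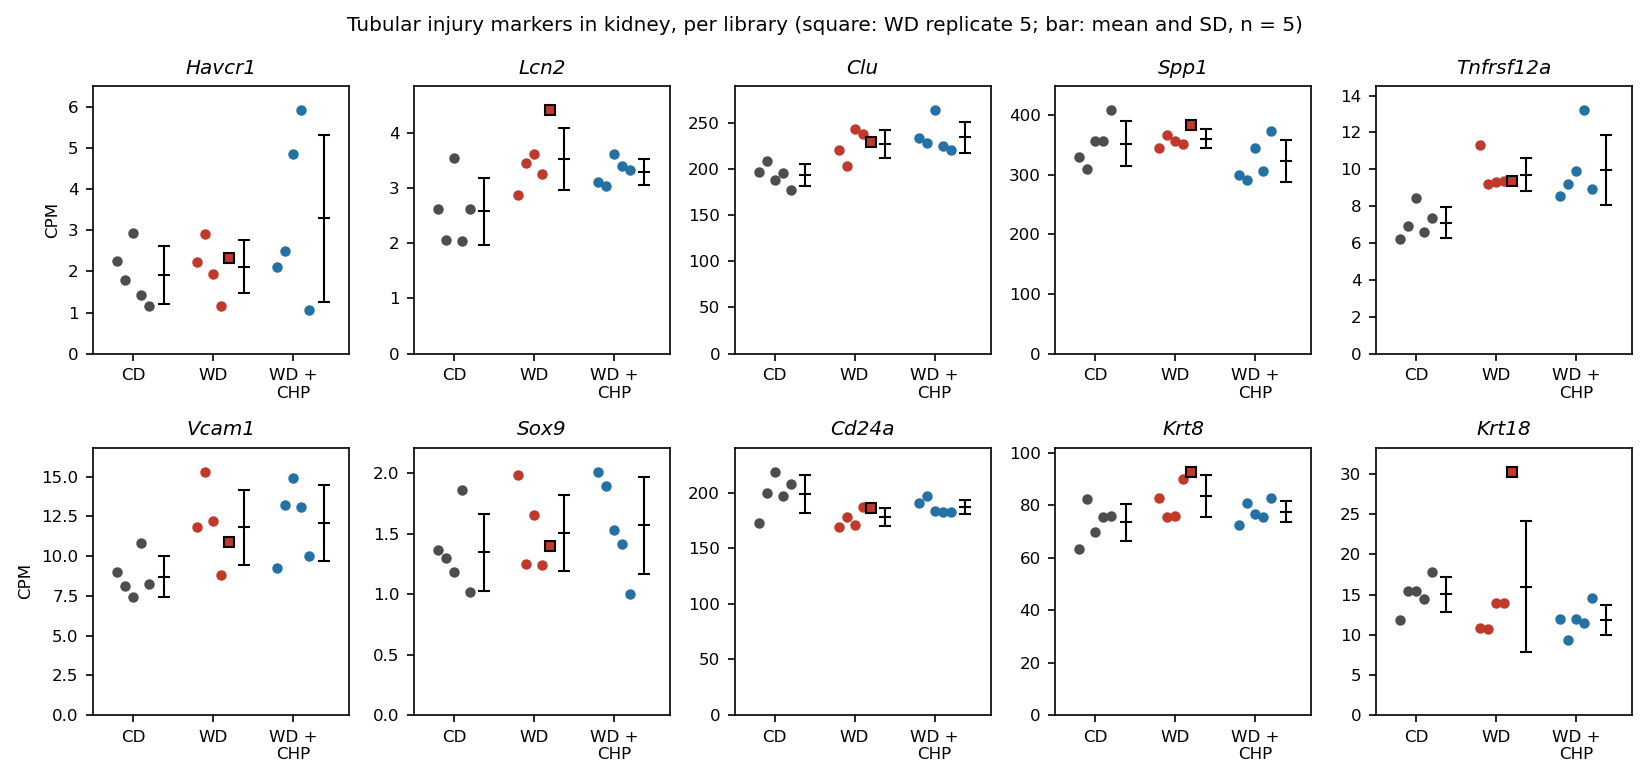
Level of each marker in CPM in the 15 kidney libraries, with points for single libraries in the order of their replicate numbers, a square for WD replicate 5, and bars for the mean and SD of each group (n = 5). All WD libraries lie above all CD libraries for *Tnfrsf12a*, *Krt18* reaches 30.3 CPM in WD replicate 5 only, and *Havcr1* is highest in WD + CHP replicates 3 and 4.

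WD vs. CD asks whether the diet moved the injury markers. *Tnfrsf12a* and *Clu* were upregulated in the WD kidney, and the other 8 members did not pass an adjusted p of 0.05. Both directions counted, 2 of 10 members were called, beside 9.65% of all genes tested, and both were higher in WD, beside 4.62% of all genes. At an unadjusted p under 0.05 there were 6 of 10 members, beside 24.9% of all genes. The median log2 fold change of the members was 0.17, and that of all genes 0.00. The largest estimates were 0.45 on the log2 scale, for *Lcn2* and *Tnfrsf12a*.

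*Tnfrsf12a* encodes Fn14, the receptor of the cytokine TWEAK. Its level in the CD libraries was 6.21, 6.92, 8.45, 6.6 and 7.35 CPM. In the WD libraries it was 11.3, 9.2, 9.31, 9.34 and 9.38 CPM. With CHP it was 8.54, 9.2, 9.93, 13.2 and 8.93 CPM. Neither of the WD groups overlapped with CD, and the highest values were those of WD replicate 1 and WD + CHP replicate 4. The log2 fold change was 0.45 ± 0.11 (SE) for WD vs. CD (adjusted p = 0.0185, edgeR) and 0.49 ± 0.11 for WD + CHP vs. CD (adjusted p = 0.0105, edgeR). The first call was narrowly lost in edgeR without CD replicate 1 (adjusted p = 0.0502) or without WD replicate 1 (adjusted p = 0.0528), and the second was kept in all 15 leave-outs. Of the partners of Fn14 on a fixed list, its ligand *Tnfsf12* and the adaptors *Traf2*, *Traf3* and *Birc2*, none passed in any of the 3 comparisons.

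*Clu* encodes clusterin, a secreted chaperone. Its level was 197, 209, 188, 196 and 177 CPM in CD. In WD it was 221, 204, 244, 238 and 230 CPM, and in WD + CHP it was 234, 229, 264, 225 and 221 CPM. Only WD replicate 2 fell within the range of the CD libraries, and no WD + CHP library did. The log2 fold change was 0.23 ± 0.06 for WD vs. CD (adjusted p = 0.0183, edgeR) and 0.28 ± 0.06 for WD + CHP vs. CD (adjusted p = 0.00618, edgeR), and both calls were kept in all 15 leave-outs.

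*Vcam1* encodes an adhesion molecule that binds integrins of leukocytes. Its level was 8.98, 8.09, 7.4, 10.8 and 8.24 CPM in CD, and 11.8, 15.3, 12.2, 8.84 and 10.9 CPM in WD. With CHP it was 9.25, 13.2, 14.9, 13.1 and 10 CPM. In each comparison with CD the groups overlapped, with 4 of 5 WD libraries and 3 of 5 WD + CHP libraries above the highest CD library. The log2 fold change was 0.44 for WD vs. CD (95% interval 0.13 to 0.75, adjusted p = 0.0689, edgeR), which did not pass in edgeR, although DESeq2 called it (adjusted p = 0.0279), as did edgeR without CD replicate 4 (0.0329) or WD replicate 4 (0.0318). It was 0.47 ± 0.15 for WD + CHP vs. CD (adjusted p = 0.0459, edgeR), which passed. The latter was close to the threshold. It was lost on leaving out any one of CD replicates 1, 2, 3 and 5, WD replicates 1 and 3 and WD + CHP replicates 2, 3 and 4 (adjusted p up to 0.118 in edgeR), and also in limma-voom (adjusted p = 0.0586), with the total count in place of TMM (0.0581) and with the replicate block (0.0636). The endothelium, which also makes *Vcam1*, had a summed list level of 490 to 589 CPM in CD, 518 to 584 CPM in WD and 479 to 543 CPM in WD + CHP. The part of the endothelium in the *Vcam1* values was not tested.

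*Lcn2* encodes lipocalin 2, an iron-binding protein secreted by the distal nephron and by neutrophils. Its level was 2.62, 2.07, 3.56, 2.04 and 2.62 CPM in CD. In WD it was 2.88, 3.47, 3.63, 3.27 and 4.42 CPM, and in WD + CHP it was 3.11, 3.04, 3.62, 3.41 and 3.33 CPM. A single CD library, replicate 3, reached the WD range, and WD replicate 5 was the highest. The log2 fold change for WD vs. CD was 0.45 (95% interval 0.15 to 0.76, adjusted p = 0.0557, edgeR), just short of the threshold, and for WD + CHP vs. CD it was 0.35 (95% interval 0.05 to 0.66, adjusted p = 0.12, edgeR). DESeq2 (adjusted p = 0.0244) and limma-voom (adjusted p = 0.0433) called the first, as did edgeR without CD replicate 3 (adjusted p = 0.00945) or WD replicate 1 (0.043). Without WD replicate 5 its log2 fold change was 0.36, the lowest over the leave-outs, and without CD replicate 3 WD + CHP vs. CD passed as well (0.0203). Neutrophil markers were near 0 in every kidney library, with a list sum of 0.185 to 1 CPM. The part of neutrophils in the *Lcn2* values was not tested.

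*Havcr1* encodes KIM-1, a phosphatidylserine receptor of injured proximal tubule cells. Its level was 2.25, 1.79, 2.93, 1.42 and 1.17 CPM in CD, and 2.22, 2.92, 1.95, 1.16 and 2.33 CPM in WD. With CHP it was 2.12, 2.49, 4.87, 5.93 and 1.06 CPM. The CD and WD groups covered nearly the same range, and WD + CHP held both the lowest library and the 2 highest of all 15. None of the comparisons passed in edgeR: the log2 fold change was 0.15 for WD vs. CD (95% interval -0.66 to 0.95, adjusted p = 0.856), 0.64 for WD + CHP vs. WD (95% interval -0.15 to 1.42, adjusted p = 0.545) and 0.78 for WD + CHP vs. CD (95% interval 0.00 to 1.57, adjusted p = 0.185). Single libraries moved these estimates. The first was 0.01 without WD replicate 2 and 0.36 without CD replicate 3, and the others were 0.31 and 0.46 without WD + CHP replicate 4 and 0.86 and 1.01 without WD + CHP replicate 5. None passed in any leave-out, the lowest adjusted p being 0.0523 in edgeR. The biological coefficient of variation of *Havcr1*, pooled over the groups, was 39.9%, the highest of the members, although within WD *Krt18* varied more. In WD + CHP replicates 3 and 4 the chemokine *Ccl2* was also at its highest, at 1.75 and 1.91 CPM against 0.259 to 1.17 CPM in the other 13 libraries, and the neutrophil list at 1 and 0.887 CPM against 0.185 to 0.739 CPM. All 7 genes of the neutrophil list had a mean under 1 CPM. Replicate 4 also had the highest *Tnfrsf12a*, the highest *Cxcl1* (4.43 CPM) and the highest sum of immediate early genes (295 CPM against 67.3 to 192 CPM). In replicate 3, however, *Cxcl1* was at 1 CPM. The sum of the other injury and repair genes listed below was 734 CPM in replicate 3, the lowest of its group. In replicate 4 it was 777 CPM, within the 734 to 796 CPM of WD + CHP. The part of the makeup of replicates 3 and 4 in the *Havcr1* values was not tested.

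*Spp1*, *Cd24a* and *Sox9* did not pass in any of the 3 comparisons. *Spp1*, whose product osteopontin is a secreted integrin ligand, was at 352 ± 37.1 CPM in CD, 361 ± 15.5 CPM in WD and 323 ± 35.3 CPM in WD + CHP (SD, n = 5 each). Its log2 fold change was 0.03 for WD vs. CD (95% interval -0.12 to 0.19, adjusted p = 0.821, edgeR). *Cd24a*, which encodes a small glycosylated surface protein of epithelial and progenitor cells, was at 199 ± 16.9, 178 ± 8.58 and 188 ± 6.02 CPM in the same order. It was the only member with a negative log2 fold change in WD vs. CD, -0.16 (95% interval -0.27 to -0.05, adjusted p = 0.0617, edgeR), with 2 WD libraries below the lowest CD library. That call was made by DESeq2 (adjusted p = 0.0363) and in edgeR without CD replicate 1 (adjusted p = 0.011). *Sox9*, a transcription factor switched on in regenerating tubule cells, was at 1.34 ± 0.316, 1.5 ± 0.314 and 1.57 ± 0.402 CPM, with a log2 fold change of 0.16 for WD vs. CD (95% interval -0.26 to 0.59, adjusted p = 0.669, edgeR) that ranged from 0.04 without WD replicate 1 to 0.31 without CD replicate 4.

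**Figure D2:**
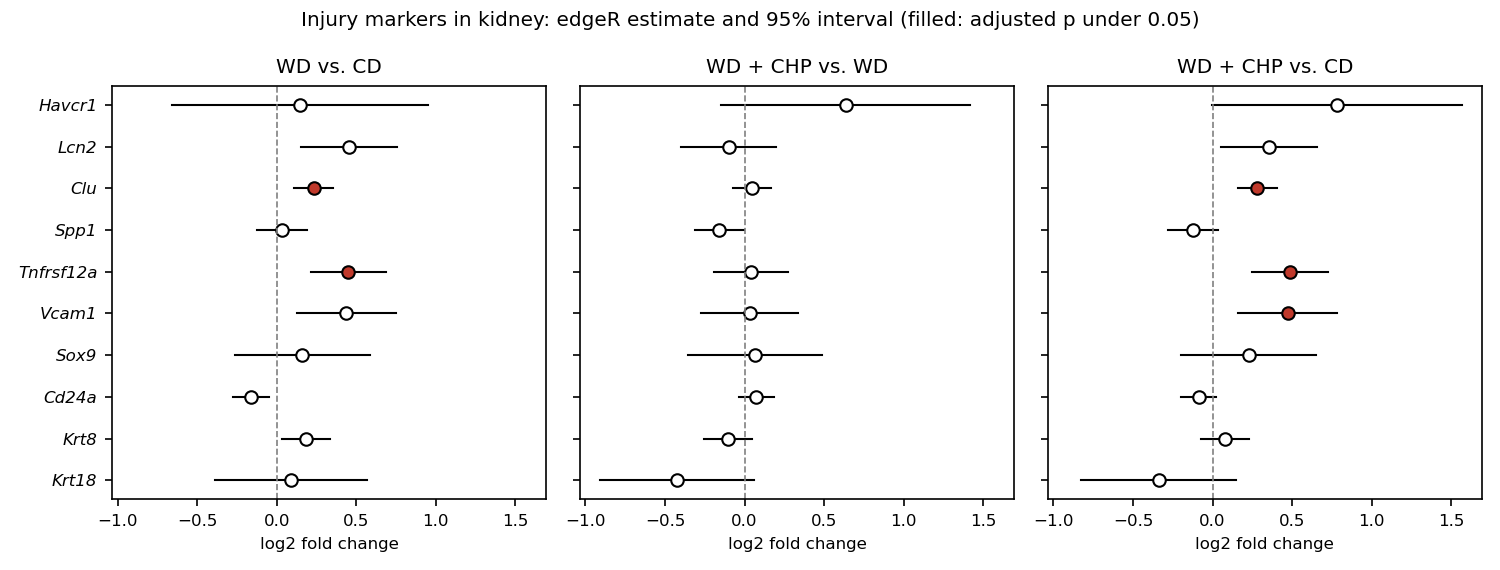
Log2 fold change of each marker (points, filled where the adjusted p in edgeR was under 0.05) and its 95% interval (lines) for the 3 kidney comparisons, on a shared axis. *Clu* and *Tnfrsf12a* are filled in both comparisons with CD, *Vcam1* in WD + CHP vs. CD only, and no marker is filled in WD + CHP vs. WD, where the intervals of *Havcr1* and *Krt18* are the widest.

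WD + CHP vs. WD asks whether CHP changed the markers in mice on the same diet. None of the 10 members passed in edgeR, beside 0.105% of all genes tested, and limma-voom also called 0. DESeq2 called 0 of the 8 members for which it gave an adjusted p, *Havcr1* and *Sox9* having none. *Spp1* was at 344, 367, 356, 352 and 384 CPM in WD and at 299, 291, 345, 307 and 374 CPM with CHP. It alone had an unadjusted p under 0.05, 1 of 10 members beside 11.4% of all genes, and its log2 fold change was -0.16 (95% interval -0.31 to 0.00, adjusted p = 0.435, edgeR), with 3 of 5 WD + CHP libraries below the lowest WD library. For the 2 genes upregulated in WD the intervals were narrow: the log2 fold change was 0.05 for *Clu* (95% interval -0.08 to 0.17) and 0.04 for *Tnfrsf12a* (95% interval -0.19 to 0.27). A reduction of *Tnfrsf12a* as large as its rise in WD therefore lay outside the interval. The values of *Vcam1* (0.03, 95% interval -0.27 to 0.34), *Lcn2* (-0.10, -0.40 to 0.20), *Cd24a* (0.07, -0.04 to 0.19) and *Sox9* (0.06, -0.36 to 0.49) were likewise around 0. The median over the members was 0.04, and over all genes -0.01.

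WD + CHP vs. CD compares the treated mice with those that never received the western diet, and it shares its groups with both comparisons above. *Clu*, *Tnfrsf12a* and *Vcam1* were called, 3 of 10 members beside 12.1% of all genes, and all 3 were higher in WD + CHP, beside 6.25% of all genes. At an unadjusted p under 0.05 there were 4 of 10, beside 27.4% of all genes. The median log2 fold change of the members was 0.25, against -0.01 over all genes.

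*Krt8* and *Krt18* encode the type II and type I keratins of simple epithelia. *Krt8* was at 63.2, 82.4, 69.9, 75.6 and 75.9 CPM in CD, and at 82.8, 75.4, 75.7, 90.1 and 92.7 CPM in WD. With CHP it was at 72.3, 80.7, 76.8, 75.3 and 82.7 CPM. The groups overlapped, although 3 of 5 WD libraries were above the highest CD library. Its log2 fold change for WD vs. CD was 0.18 (95% interval 0.03 to 0.33, adjusted p = 0.114, edgeR), and for WD + CHP vs. WD it was -0.10 (95% interval -0.25 to 0.05, adjusted p = 0.618, edgeR). *Krt18* was at 11.8, 15.5, 15.5, 14.5 and 17.8 CPM in CD, and at 10.9, 10.7, 13.9, 14 and 30.3 CPM in WD. With CHP it was at 12, 9.36, 12, 11.5 and 14.6 CPM. WD replicate 5, at 2.45 times the mean of the other 4 WD libraries, was far above all 14 other libraries, which ranged from 9.36 to 17.8 CPM. *Krt8* in that library was at 1.15 times the mean of the other 4.

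In edgeR the direction of *Krt18* in WD vs. CD rested on that library, whereas limma-voom gave -0.0155 with all libraries. The edgeR log2 fold change of *Krt18* for WD vs. CD was 0.09 (95% interval -0.39 to 0.57, adjusted p = 0.852, edgeR) with all libraries and -0.28 without WD replicate 5 (adjusted p = 0.198). For WD + CHP vs. WD it kept its direction and moved from -0.43 (95% interval -0.91 to 0.06, adjusted p = 0.511) to -0.05 (adjusted p = 0.933). In the same library *Krt19*, a keratin of ducts and urothelium, was at 8.88 CPM against 1.77 to 4.53 CPM in the other WD libraries, and the uroplakin *Upk1b* was at 9.04 CPM against 1.27 to 2.62 CPM. *Krt5*, a keratin of basal urothelial cells, was at 6.02 CPM against 0.554 to 2.22 CPM. Over the whole urothelium list all 8 genes were detected, and the sums ranged from 19.1 to 30.2 CPM in CD, 11.1 to 67.5 CPM in WD and 13 to 29.6 CPM in WD + CHP. None of the 8 passed in any comparison in edgeR, and at an unadjusted p under 0.05 there were 2 in WD vs. CD (*Krt5* and *Krt15*), a share close to the 24.9% of all genes, and 0 in the other comparisons. The collecting duct principal cell list was also highest in WD replicate 5, at 582 CPM against 470 to 495 CPM. Without this library the other 9 members kept the side of the threshold they had in each of the 3 comparisons.

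**Figure D3:**
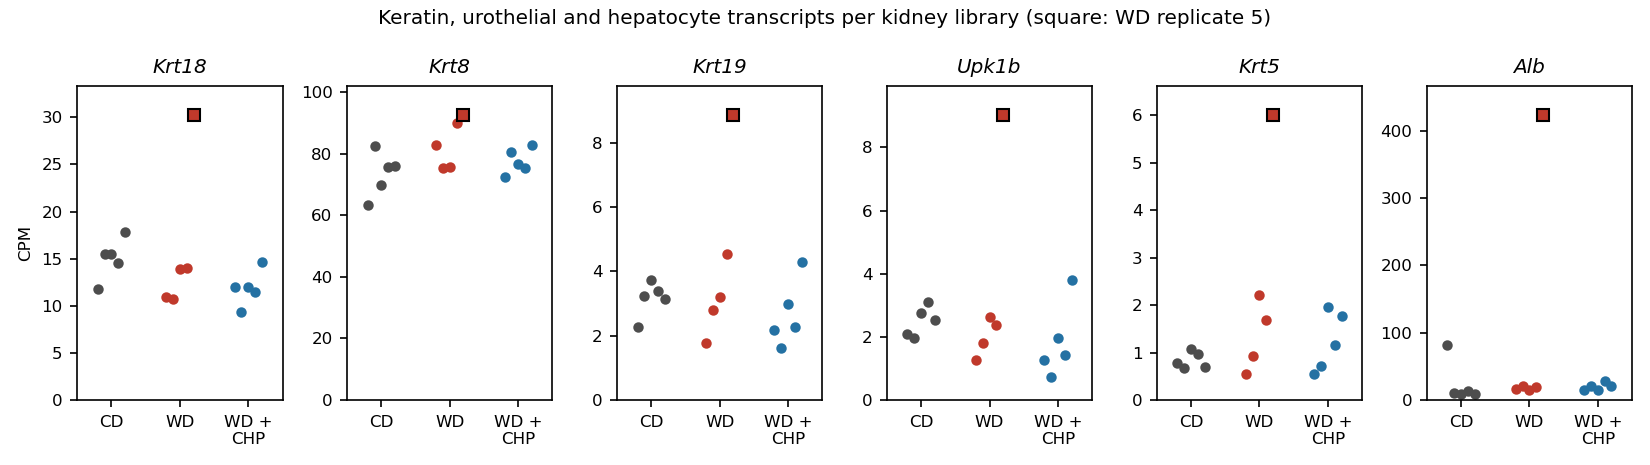
CPM of *Krt18*, *Krt8*, *Krt19*, *Upk1b*, *Krt5* and *Alb* in the 15 kidney libraries (points, in replicate order within each group, each axis from 0), with a square for WD replicate 5. That library is the highest in all 6 panels, at 30.3 CPM for *Krt18* and 424 CPM for *Alb*, but by a small margin for *Krt8*.

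Other genes of tubular injury and repair were read from a list of 32, of which 30 were tested. In WD vs. CD 4 rose and 1 fell, beside 9.65% of all genes called in either direction and 4.62% called higher. The count of 5 was 3 without CD replicate 1 or 2 or WD replicate 5, and at most 6 in the other leave-outs. Chemokines were among them. *Cxcl1*, a neutrophil attractant, had a log2 fold change of 1.82 ± 0.42 (adjusted p = 0.0123, edgeR), and *Cxcl16* one of 0.25 ± 0.04 (adjusted p = 0.00118). *Cxcl1* was at 0.68, 0.389, 0.523, 0.438 and 0.864 CPM in CD and at 2.03, 1.59, 3.22, 2.14 and 1.34 CPM in WD, with no overlap. *Krt7*, a keratin of the collecting duct and urothelium (0.24 ± 0.07, adjusted p = 0.0347), and *Vim*, the mesenchymal intermediate filament vimentin (0.24 ± 0.07, adjusted p = 0.0489), rose, but both calls were lost without WD replicate 5 (adjusted p = 0.0775 and 0.098 in edgeR), with log2 fold changes of 0.20 and 0.22 that stayed close to those with it. Both calls were lost with the total count (0.0632 and 0.0713), and that of *Vim* with only the 2 groups compared (0.06). The *Krt7* call was also lost without CD replicate 1 or 2 or WD replicate 4, and that of *Vim* was kept only without CD replicate 4, WD replicate 4 or WD + CHP replicate 1 or 5, with an adjusted p of up to 0.116 in the other 11 leave-outs. *Prom1*, which encodes the progenitor marker CD133, fell by 0.37 ± 0.09 on the log2 scale (adjusted p = 0.016, edgeR).

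In WD + CHP vs. WD none of the 30 genes passed in edgeR, 5 had an unadjusted p under 0.05, beside 11.4% of all genes, and DESeq2 also called 0. The 5 were *Vim* (-0.22), *Anxa3* (-0.22), *Pax2* (-0.25), *Anxa2* (-0.17) and *Dcdc2a* (0.26), with an adjusted p of at least 0.242 in edgeR. Their values in WD vs. CD, which shares the WD libraries, were of the opposite sign (0.24, 0.22, 0.09, 0.18 and -0.29). In WD + CHP vs. CD 4 of 30 passed, beside 12.1% of all genes. *Ccl2* (1.55 ± 0.41, adjusted p = 0.023), *Cxcl1* (1.68 ± 0.43, adjusted p = 0.0182) and *Cxcl16* (0.18 ± 0.04, adjusted p = 0.00885) rose and *Prom1* fell by 0.45 ± 0.09 (adjusted p = 0.00498). Without WD + CHP replicate 4 the log2 fold change of *Cxcl1* was 1.08 (adjusted p = 0.0471, edgeR). The *Ccl2* call was lost without CD replicate 2 or 5 or WD + CHP replicate 3 or 4 (adjusted p up to 0.0726 in edgeR) and in limma-voom (adjusted p = 0.0758). The medians over the list were 0.19, -0.08 and 0.06 for WD vs. CD, WD + CHP vs. WD and WD + CHP vs. CD, against 0.00, -0.01 and -0.01 over all genes.

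The ligands, receptors and partners of the members were read from a list of 24, of which 21 were tested. In WD vs. CD and in WD + CHP vs. CD 2 of 21 passed, a share close to the 9.65% of all genes in the former and below the 12.1% in the latter. The count in WD vs. CD ranged over the leave-outs from 0 (without CD replicate 1 or WD replicate 4 or 5) to 4 (without WD replicate 2). In WD vs. CD *Krt7* rose, as above, and *Itgav*, the integrin subunit that binds osteopontin, fell by 0.14 ± 0.04 (adjusted p = 0.039, edgeR), a call kept only without CD replicate 2, WD replicate 2 or WD + CHP replicate 2, 3, 4 or 5 (adjusted p up to 0.106 in the other leave-outs). It was lost with no filter (0.0908), with only the 2 groups compared (0.0642) and with the replicate block (0.0768). In WD + CHP vs. CD *Vldlr*, a lipoprotein receptor that binds clusterin, rose by 0.29 ± 0.06 (adjusted p = 0.00516) and *Itgb5*, a partner of *Itgav*, fell by 0.15 ± 0.04 (adjusted p = 0.0351, edgeR), a call kept only without CD replicate 3, WD replicate 1 or 3 or WD + CHP replicate 1 (adjusted p up to 0.115 in the other leave-outs) and lost with no filter (0.0811) or only the 2 groups compared (0.0525). None of the 21 passed in WD + CHP vs. WD in edgeR, where 4 had an unadjusted p under 0.05, beside 11.4% of all genes, but DESeq2 called 3, and edgeR called 2 without WD replicate 2 and 1 without WD + CHP replicate 1.

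Among lists of nephron segments, 5 of 6 genes of the distal convoluted and connecting tubule were higher in WD than in CD, beside 4.62% of all genes, and 5 of 6 were higher in WD + CHP than in CD, beside 6.25%. *Pvalb* (parvalbumin) led with a log2 fold change of 0.51 ± 0.07 in each (adjusted p = 0.000643 and 0.000839, edgeR), followed by *Slc8a1* (0.42 ± 0.08, adjusted p = 0.00328 in WD vs. CD) and *Calb1* (0.37 ± 0.07, adjusted p = 0.00537 in WD vs. CD), which encode a sodium-calcium exchanger and a calcium-binding protein, and these 3 calls were kept in all 15 leave-outs in both comparisons. The call of *Trpm6*, a magnesium channel, was weaker. In WD vs. CD (adjusted p = 0.0456, edgeR) it was kept only without CD replicate 5, WD replicate 3 or WD + CHP replicate 1, 2 or 5, with an adjusted p of up to 0.107 in the other 10 leave-outs, and it was lost with the total count (0.0737). In WD + CHP vs. CD it was lost without CD replicate 1, 2 or 3 or WD + CHP replicate 3 or 5 (adjusted p up to 0.073 in edgeR) and with the total count (0.0769). *Slc12a3*, the thiazide-sensitive cotransporter, kept its call in all 15 leave-outs in WD vs. CD, whereas in WD + CHP vs. CD the call was lost without CD replicate 2 or 3 or WD + CHP replicate 2 or 5 (adjusted p up to 0.0612 in edgeR) and with the total count (0.123). With only the 2 groups compared, *Trpm6* was lost in both comparisons and *Slc12a3* in WD + CHP vs. CD. Of 15 proximal tubule genes 2 rose and 1 fell in WD vs. CD, with a median of 0.00, and 3 rose and 1 fell in WD + CHP vs. CD. Of the other epithelial lists, 1 of 7 collecting duct principal cell genes rose in WD vs. CD and 2 of 6 intercalated cell genes fell in WD + CHP vs. CD, while 0 of 6 genes of the thick ascending limb, 0 of 8 of the inner medulla and 0 of 6 of podocytes passed in either. In both directions together, 9.65% of all genes were called in WD vs. CD and 12.1% in WD + CHP vs. CD.

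The lists of other cells were read beside the same shares, of which 4.62% and 6.25% of all genes were higher. On them, 2 of 7 fibroblast and pericyte genes rose in WD vs. CD and 1 in WD + CHP vs. CD, 2 of 7 B and T cell genes rose in WD vs. CD, and 0 of 8 macrophage genes passed. Of 8 endothelial genes 1 rose in WD vs. CD and 1 fell in WD + CHP vs. CD. Of 6 hepatocyte genes tested 2 rose and 1 fell in WD vs. CD, and 1 rose in WD + CHP vs. CD. Of 4 adipocyte genes tested 1 fell in WD vs. CD, and of 8 immediate early genes 0 passed. The lists of neutrophils, adrenal cortex and skeletal muscle had 1 gene each above the filter, and none of these passed. In WD + CHP vs. WD 0 genes of any list passed in edgeR.

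Members were then compared with each other across the 15 kidney libraries, after centring log2 CPM on the mean of each group. Of 45 pairs none had an adjusted p under 0.05 in a two-sided permutation test that shuffled libraries within groups, by Pearson's r or by Spearman's rho, and 3 and 2, respectively, had an unadjusted p under 0.05. The 2 by rho were *Lcn2* and *Spp1* (rho = 0.564, permutation p = 0.0403, adjusted p = 0.495, r = 0.425) and *Vcam1* and *Krt18* (rho = -0.546, permutation p = 0.0398, adjusted p = 0.495, r = -0.37). Correlations were positive in 22 of 45 pairs, with a median r of -0.01. *Krt8* and *Krt18* had r = 0.562 (permutation p = 0.0337, adjusted p = 0.499) and rho = 0.518 (permutation p = 0.0603, adjusted p = 0.495). Their r was 0.567 without the 2 libraries farthest from the median of *Krt8*, 0.357 without the 2 farthest from that of *Krt18*, and 0.455 without WD replicate 5. *Spp1* and *Krt18* had r = 0.508 (permutation p = 0.00491, adjusted p = 0.221) and rho = 0.461 (permutation p = 0.0536, adjusted p = 0.495), with r = 0.435 without the 2 libraries farthest from the median of *Spp1* and 0.679 without the 2 farthest from that of *Krt18*. *Spp1* and *Sox9* went in opposite directions, with r = -0.613 (permutation p = 0.0353, adjusted p = 0.499) and rho = -0.543 (permutation p = 0.0596, adjusted p = 0.495), with r = -0.285 without the 2 libraries farthest from the median of *Spp1* and -0.596 without the 2 farthest from that of *Sox9*. *Havcr1* and *Lcn2*, the best known urinary pair, had r = 0.364 (permutation p = 0.108, adjusted p = 0.499) and rho = 0.432 (permutation p = 0.108, adjusted p = 0.495), with r = 0.503 without the 2 libraries farthest from the median of *Havcr1* and 0.209 without the 2 farthest from that of *Lcn2*.

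**Figure D4:**
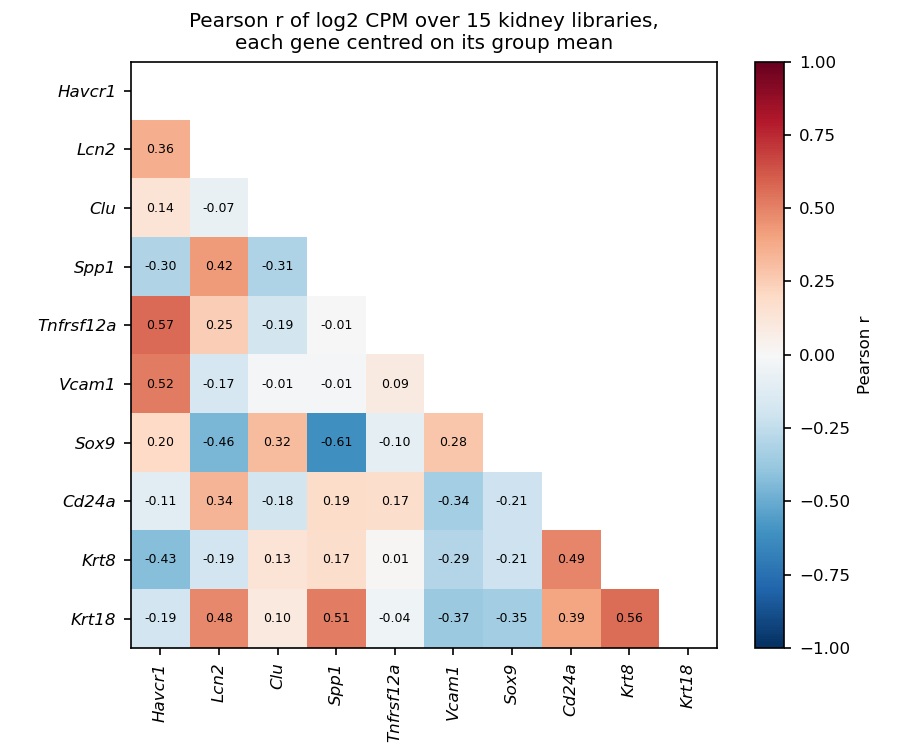
Pearson's r of log2 CPM for the 45 pairs of markers over 15 kidney libraries, each gene centred on its group mean, with r printed in each cell and coloured from -1 to 1. Values run from -0.61 (*Spp1* and *Sox9*) to 0.57 (*Havcr1* and *Tnfrsf12a*), and none passed after adjustment.

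Among 12407 genes with a mean log2 CPM of at least 1, those whose log2 CPM over the 15 kidney libraries was most like a member's are given as a description, with no test, and the libraries share the differences between groups. For *Tnfrsf12a* they were *Asb13* (r = 0.921), *Galnt3* (0.898) and *Shisa7* (0.898). For *Clu* they were *Mff* (0.905), *Prelid3b* (0.897) and *Atp5c1* (0.88), and for *Vcam1* they were *Dock10* (0.909), *Mapk14* (0.907) and *C7* (0.887). Leaving out WD replicate 5 changed these 9 values little (0.885 to 0.923). For *Krt18* they were *Mycbpap* (0.923), *Muc1* (0.915) and *Gstm2* (0.914), and without WD replicate 5 they were 0.789, 0.81 and 0.854.

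The same 10 genes were found in the gastrocnemius table, made from the same 3 groups with 5 libraries each, and 8 passed the filter there. *Havcr1* (0 to 0.0382 CPM) and *Krt8* (0.0189 to 0.839 CPM) did not. Muscle holds no tubules, and it was used to compare the diet effect between organs. The labels do not tie muscle libraries to kidney libraries by animal. In muscle 1 of 8 members was called in WD vs. CD, beside 8.63% of all genes, and 0 in WD + CHP vs. WD, beside 0.409%, where 0 also had an unadjusted p under 0.05. The member called was *Tnfrsf12a*, at 8.63, 14.4, 6.31, 7.63 and 6.73 CPM in CD and at 18.8, 15.4, 14.8, 23 and 29.1 CPM in WD, with no overlap. Its log2 fold change was 1.21 ± 0.23 (adjusted p = 0.00364, edgeR).

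The difference between tissues is counted for the 8 members that passed the filter in each tissue. *Havcr1* and *Krt8* had almost no counts in muscle and are left out of the count. The joint fit tested them too, and neither passed for WD vs. CD (adjusted p = 0.877 and 0.372, edgeR). *Krt18*, which is counted, was also low in muscle (0.0584 to 1.25 CPM). The WD vs. CD effect differed for 1 of these 8, *Clu*, beside 4.13% of all genes. In gastrocnemius *Clu* was at 66.8, 67.8, 52.9, 55 and 65.6 CPM in CD and at 54.7, 51, 64.9, 49.2 and 47.9 CPM in WD, a log2 fold change of -0.20 (95% interval -0.39 to -0.02, adjusted p = 0.159, edgeR). The kidney effect was higher by 0.44 ± 0.11 on the log2 scale (adjusted p = 0.0181, edgeR), which was kept in all 20 leave-outs and lost with the total count in place of TMM scaling (adjusted p = 0.0649). For *Tnfrsf12a* the kidney effect minus that in muscle was -0.75 ± 0.28 (adjusted p = 0.131, edgeR), and this difference passed only without gastrocnemius CD replicate 2 (adjusted p = 0.0102). *Spp1* (-0.70 ± 0.29, adjusted p = 0.181) passed only without gastrocnemius CD replicate 2 (0.0192) or WD replicate 1 (0.0362), and *Vcam1* (0.41 ± 0.19, adjusted p = 0.255) did not pass in edgeR. The WD + CHP vs. WD effect differed for 0 of the 8 members, beside 0.347% of all genes, in edgeR and in limma-voom, and 0 had an unadjusted p under 0.05.

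**Figure D5:**
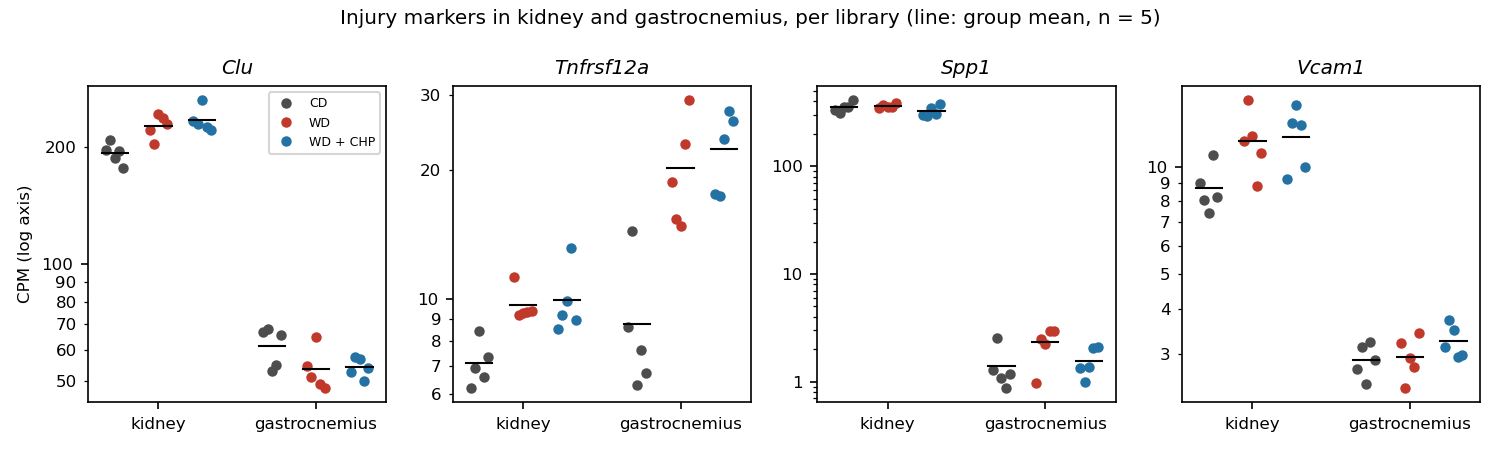
CPM (log axis) of *Clu*, *Tnfrsf12a*, *Spp1* and *Vcam1* in each kidney and gastrocnemius library, coloured by group, with a line for each group mean (n = 5). *Tnfrsf12a* is higher in WD than in CD in both tissues, while *Clu* is higher in WD in kidney and lower in gastrocnemius, where it did not pass.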

How the data were processed

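The RNA-seq libraries used were 15 of kidney and 15 of gastrocnemius, with 5 in each diet or treatment group. The deposited values are raw counts per gene and library, not normalised, which the authors made from polyA-enriched BGISEQ reads cleaned with SOAPnuke. STAR 2.7.3a and GRCm38 are named in the submitters' processing notes. The counting tool, annotation and strand setting are not given in the sources used here. Each table column could be assigned to 1 library, with 0 left over. Lower counts carry wider errors, and intervals rest on the spread between mice.

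The main tests used edgeR 4.0.16 (R 4.3.3). DESeq2 1.42.0 and limma 3.58.1 served as alternatives, and Python 3.11.15 for correlations and plots. Genes were kept by filterByExpr (minimum count 10), scaled by TMM and fitted with the 3 groups of a tissue in 1 quasi-likelihood model. P values were two-sided and adjusted by Benjamini-Hochberg over all genes kept, with a threshold of 0.05. CPM are counts per TMM-scaled library size, and a prior count of 2 was added for log2 CPM. The difference between tissues was tested in 1 model of all 30 libraries. Pairs were tested with 100000 permutations. Exon lengths came from GENCODE M21, in which 54809 of 54838 kidney identifiers were found.

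The members, gene lists and tests were chosen with earlier results of these data known. All 10 members are named, as well as genes of the injury and partner lists with an adjusted p under 0.05, up to 8 per comparison, at most 3 of each cell type list, and the 3 genes most like each member that was called or had a library far from its group. *Krt19*, *Upk1b*, *Krt5*, *Krt15*, *Alb*, *Trpm6*, *Slc12a3*, *Anxa2*, *Anxa3*, *Pax2*, *Dcdc2a*, and *Ccl2* and *Cxcl1* in single libraries, were singled out after their values were seen. As alternatives, the tool (DESeq2, limma-voom), the scaling (size factors as in DESeq2, or total count), the low-count filter (none, or 10 counts in all libraries) and the model (only the 2 groups compared, or replicate number as a block) were changed 1 at a time, and each library was left out in turn.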

Additional observations from a re-analysis of the deposited data

Results flagged for a closer look

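A library was singled out where its gap to the nearest of the other 4 exceeded 0.71 of its group's range, which chance gives for about 1 in 20 groups. Among 30 groups of member levels 3 did so. *Krt18* in kidney WD replicate 5 was at 30.3 CPM against 10.7 to 14 CPM in the others (gap 0.834 of the range). *Tnfrsf12a* in WD replicate 1 was at 11.3 CPM against 9.2 to 9.38 CPM (0.912). *Clu* in WD + CHP replicate 3 was at 264 CPM against 221 to 234 CPM (0.714).

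Among 60 groups of summed marker lists 7 did so, and 3 of these were in WD replicate 5: hepatocytes at 1234 CPM against 581 to 667 CPM (0.869), collecting duct principal cells at 582 CPM against 470 to 495 CPM (0.776), and proximal tubule, which was low at 22421 CPM against 23198 to 23401 CPM (0.792). In WD replicate 3 the endothelium list was low (518 CPM against 567 to 584 CPM, 0.743) and the immediate early genes were high (192 CPM against 105 to 130 CPM, 0.71). The B and T cell list was high in WD + CHP replicate 2 (7.19 CPM against 3.66 to 4.53 CPM, 0.753), and the adrenal cortex list in CD replicate 1 (5.81 CPM against 4.91 to 5.1 CPM, 0.781).

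The WD vs. CD effect on *Clu* was higher in kidney than in gastrocnemius by 0.436 on the log2 scale (adjusted p = 0.0181, edgeR interaction term).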

How the results depend on the processing

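Of 240 log2 fold changes of members in kidney under other tools, scalings, filters and models, 230 kept their direction and side of the threshold, and of 450 under leave-outs 425 did. In WD vs. CD, DESeq2 called 5 members instead of 2. The count of members whose WD vs. CD effect differed between tissues was 0 with the total count in place of TMM, and 1 to 3 over the leave-outs. Pairs that varied together numbered 0 to 1 over the leave-outs, the 1 being *Spp1* and *Krt18* without CD replicate 2. Values that reversed were near 0 apart from *Krt18*. With limma-voom *Krt18* was at -0.0155 in WD vs. CD, and over the leave-outs it ranged from -0.275 to 0.205. With the total count *Vcam1* was at -0.00339 in WD + CHP vs. WD, and over the leave-outs it ranged from -0.0529 to 0.147. Over the leave-outs *Spp1* ranged from -0.00337 to 0.0968 in WD vs. CD, and in WD + CHP vs. WD *Sox9* ranged from -0.0394 to 0.19 and *Tnfrsf12a* from -0.0838 to 0.101. The causes were not tested. In the fits across all kidney genes, the 18 genes called in WD + CHP vs. WD became 194 in DESeq2, 37 with no filter, 70 with the replicate block, 0 with only the 2 groups compared, and 0 to 97 over the leave-outs (97 without WD replicate 2, and 0 when any of WD replicates 1, 4 and 5 or WD + CHP replicates 3 and 4 was omitted). The 2070 called in WD + CHP vs. CD, of which 51.7% were higher, became 2474 with the total count, of which 26.7% were higher, and 1202, 1249 and 1294 without WD + CHP replicate 4, CD replicate 5 and WD + CHP replicate 3. The 772 genes whose WD vs. CD effect differed between tissues became 1372 with the total count. Replicate numbers shared by groups did not mark pairs: same-numbered kidney libraries of different groups had correlations of -0.0907 to 0.144 in their deviations from the group means, 2 of 15 above 0.1. With the replicate block 3, 0 and 2 members were called in WD vs. CD, WD + CHP vs. WD and WD + CHP vs. CD, *Lcn2* being gained in the first and *Vcam1* lost in the last. *Havcr1*, *Lcn2* and *Sox9*, with 37 to 214 counts per library, carry the widest errors from depth.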
